A study of Homo sapiens with 6 samples.

Results

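The integrated stress response (ISR) and the unfolded protein response (UPR) were followed through 35 genes of the 60676 in the count table, chosen by their symbols from a list of the pathways' known genes. The choice was made with earlier results of these data known, so shares of these genes beside those of all genes are descriptions and not tests. All 35 were found, and each passed the filter of at least 10 counts in at least 3 libraries. TC71, an established line of Ewing sarcoma cells, was the source of the RNA, in 2 groups of 3 libraries. Cells of both groups carried a Dox-inducible lentiviral shRNA construct with a GFP reporter and had been selected with puromycin as polyclonal lines. shNTC+Dox expressed a non-targeting shRNA and shEHD1+Dox an shRNA against EHD1, a regulator of endocytic recycling, and both had 0.5 µg/ml Dox for 3 days. Cells without Dox were not analysed here. Which EHD1 shRNA was used is not given in the sources used here, and with 1 engineered line per group the effects of EHD1 loss, of the shRNA sequence and of the line itself cannot be told apart.

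In the ISR, stress kinases phosphorylate the translation initiation factor eIF2α, which lowers general protein synthesis while mRNAs such as ATF4 are translated more efficiently. ATF4 then switches on genes for amino acid supply, redox balance and, under lasting stress, cell death. The UPR is run by sensors in the endoplasmic reticulum (ER) membrane, PERK, IRE1α and ATF6, which raise the folding and degradation capacity of the ER, and PERK is also a kinase of the ISR. Much of the control lies in translation, splicing, phosphorylation and proteolysis, which gene-level RNA counts do not measure.

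Among the 35 genes, 8 rose and 4 fell in shEHD1+Dox against shNTC+Dox at an adjusted p under 0.05 (edgeR's quasi-likelihood test, Benjamini-Hochberg adjustment over 16785 genes), and 23 did not pass. The 8 were 22.9% of the genes followed, and 8.59% of all genes tested rose. The 4 were 11.4%, and 8.75% of all genes tested fell. Percentages of the role groups below are to be set beside these shares of all genes. NUPR1, DDIT4, HERPUD1, ERN1, EIF2AK3, CALR, ALDH18A1 and PDIA4 rose, while ATF5, SLC7A5, SLC3A2 and PSPH fell. NUPR1 and DDIT4 also rose at least 2-fold, which 1.08% of all genes tested did, and ATF5 fell at least 2-fold, which 1.74% did. An unadjusted p under 0.05 was seen for 20 of the 35 (57.1%) and for 32.3% of all genes tested. The log2 fold change was above 0 for 22 (62.9%), against 50.1% of all genes tested, and below 0 for 13, and the median was 0.19, where that of all genes tested was 0.0. All 3 shEHD1+Dox libraries lay above all 3 shNTC+Dox libraries for 17 of the 35 genes, and below them for 6. Over all genes tested, these shares were 19.9% and 19.4%.

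Total counts ranged from 22711235 to 28203023 in shNTC+Dox and from 24150135 to 30582187 in shEHD1+Dox. Levels are given in CPM, the count of a gene as its share of the library after TMM scaling, in the order of replicates 1, 2 and 3, and gene positions are on GRCh38 from GENCODE. EHD1 itself was at 27.1, 28.0 and 26.4 CPM in shNTC+Dox and at 7.55, 7.15 and 9.37 CPM in shEHD1+Dox, so the groups were well apart (log2 fold change -1.76, SE 0.12; adjusted p = 0.000135 in edgeR's quasi-likelihood test). The summed level of 11 genes typical of Ewing sarcoma was 3150 to 3260 CPM in shNTC+Dox and 2880 to 3030 CPM in shEHD1+Dox, with none at 0, 1 higher and 3 lower at an adjusted p under 0.05. Of 5 blood cell markers, 3 were at 0 in every library and the sum stayed at or under 0.582 CPM. Of 5 epithelial markers, 3 were under 1 CPM in every library, and the sum was 27.2 to 31.6 CPM in shNTC+Dox and 34.1 to 40.2 CPM in shEHD1+Dox. The 6 fibroblast markers summed to 257 to 344 CPM in shNTC+Dox and 449 to 512 CPM in shEHD1+Dox, with COL3A1 higher (171 to 210 CPM against 335 to 391 CPM), DCN lower and none at 0 in every library, and their part in the results was not tested. The labels do not say whether libraries came from separate cultures, so that p-values measure the spread between these libraries only, and in bulk RNA fewer cells with a transcript and less of it per cell cannot be told apart.

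shNTC+Dox replicate 3 differed from the other control libraries for several of the 35 genes, as it did over the whole table. It was the lowest control for 17 of the 35 (48.6%) and for 41.6% of all genes tested. The median coefficient of variation among controls was 9.51% for the 35 genes and 11.6% for all genes tested. DDIT4, ATF3 and TRIB3 were lower there than in the mean of shNTC+Dox replicates 1 and 2 by log2 differences of -0.89, -0.88 and -0.87. CHAC1, DDIT3, ASNS, NUPR1 and ERN1 were lower by -0.70, -0.55, -0.53, -0.50 and -0.44. In the other direction, ATF5, SLC7A5, DNAJB9 and SLC3A2 were higher there by 0.48, 0.43, 0.41 and 0.33. It was the lowest control for 3 of 3 ER stress sensors and the highest for 7 of 8 ER folding and degradation genes, where it was the highest for 41.5% of all genes tested. Without it, 12 of the 35 rose rather than 8, with DNAJB9, HSP90B1, TRIB3 and XBP1 added, the same 4 fell, and ATF5 was no longer past 2-fold. Calls became more common over the whole table too, with 11.4% of all genes tested higher and 10.5% lower in that fit. It also had the smallest total count of the 6 libraries, 22711235 against 26528902 and 28203023 in the other controls. What sets this library apart was not tested, and values without it are given below where they matter.

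**Figure D1:**
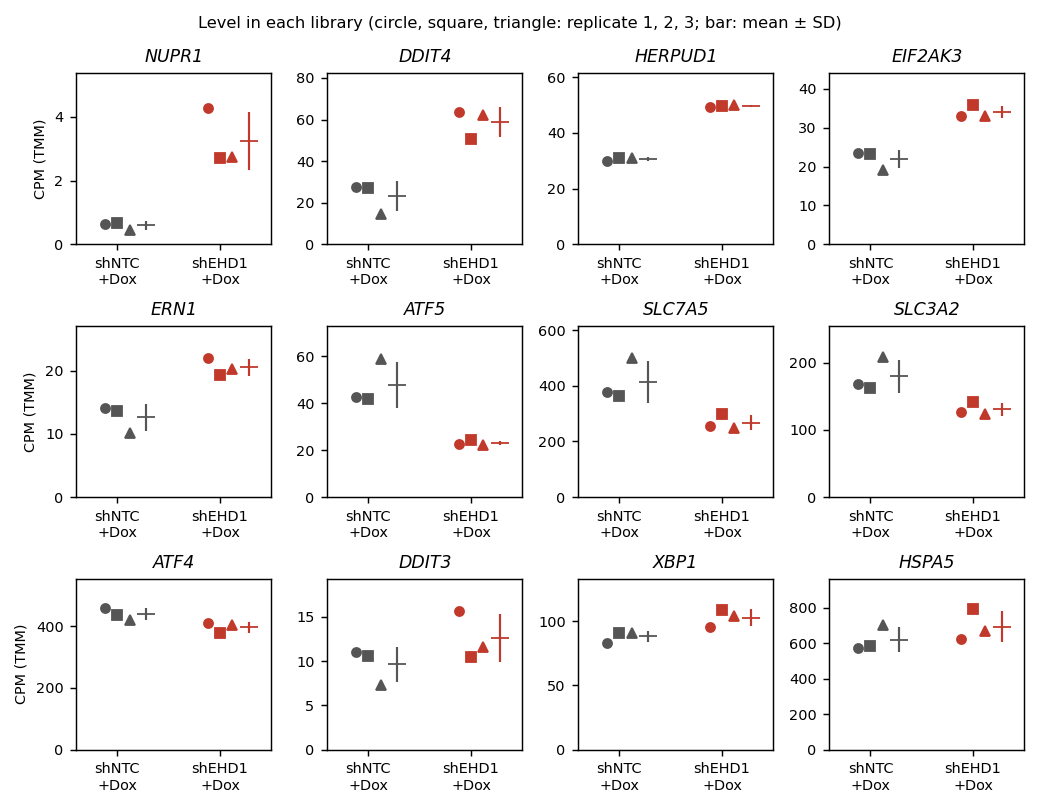
Level of 12 of the genes in CPM (linear axes from 0), with 1 symbol per library and a bar at the mean ± SD of each group (n = 3). NUPR1 and DDIT4 in shEHD1+Dox lie above every control library and ATF5 below, and shNTC+Dox replicate 3 (triangle) lies at 14.8 CPM for DDIT4, under the other two.

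Of the 3 ER stress sensors, 2 rose (66.7%), and ATF6 was higher in each shEHD1+Dox library without passing the test. EIF2AK3 (ENSG00000172071, chr2:88556741-88691518) encodes PERK, the ER kinase that phosphorylates eIF2α. It was at 23.4, 23.1 and 19.2 CPM in shNTC+Dox and at 33.1, 35.8 and 33.1 CPM in shEHD1+Dox. No library of one group reached the range of the other, and the log2 fold change was 0.63 (SE 0.10; adjusted p = 0.00397, edgeR's quasi-likelihood test). EIF2AK3 passed with any single library left out. ERN1 (ENSG00000178607, chr17:64039080-64130819) encodes IRE1α, the kinase and RNase that splices XBP1 mRNA. Its levels were 14.1, 13.7 and 10.2 CPM in shNTC+Dox and 22.0, 19.3 and 20.3 CPM in shEHD1+Dox, again without overlap (log2 fold change 0.69, SE 0.14; adjusted p = 0.0108, edgeR's quasi-likelihood test). Without shEHD1+Dox replicate 1 the log2 fold change was 0.64 and the adjusted p just missed the threshold (0.0501, edgeR's quasi-likelihood test). ATF6, a transcription factor that is released from the ER membrane by proteolysis, was at 90.4, 95.8 and 79.3 CPM in shNTC+Dox and at 109, 99.4 and 104 CPM in shEHD1+Dox. The groups did not overlap, though the difference was small (log2 fold change 0.23, SE 0.08) and did not pass (adjusted p = 0.0867, edgeR's quasi-likelihood test). EIF2AK3 and ERN1 had low levels for their length, of 4.0 ± 0.491 and 2.5 ± 0.459 TPM (a CPM corrected for length, computed here on merged exons) in shNTC+Dox (SD, n = 3), where ATF6 was at 23.4 ± 2.49. The gap depended on the length used: with the longest transcript the means were 12.8 for EIF2AK3, 3.87 for ERN1 and 32.7 for ATF6.

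The transcription factors of both responses did not move as a block: of 8, NUPR1 rose, ATF5 fell (12.5% each) and 6 did not pass. ATF4, the factor at the centre of the ISR, was among the most abundant of the 35 genes, second only to CALR per exon length in shNTC+Dox (634 ± 40.0 against 743 ± 68.3 TPM on merged exons, SD, n = 3). ATF4 was at 458, 437 and 420 CPM in shNTC+Dox and at 409, 377 and 403 CPM in shEHD1+Dox. Every shEHD1+Dox library was therefore below every control, by a small margin that did not pass the test (log2 fold change -0.15, SE 0.07; adjusted p = 0.171, edgeR's quasi-likelihood test). ATF4 is controlled mainly by its translation, so its mRNA level does not give the amount of protein.

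ATF5 (ENSG00000169136, chr19:49928702-49933935), a factor related to ATF4 whose mRNA is translated under the same kind of control, fell more than any other of the 35. It was at 42.8, 41.7 and 59.0 CPM in shNTC+Dox and at 22.7, 24.2 and 22.2 CPM in shEHD1+Dox. The highest shEHD1+Dox library was well below the lowest control, and the fall was 2.08-fold (log2 fold change -1.05, SE 0.13; adjusted p = 0.00172, edgeR's quasi-likelihood test). ATF5 passed with any single library left out, at log2 fold changes of -1.15 to -0.88, and the smallest fall was that without shNTC+Dox replicate 3, the control with the most ATF5. Of the ATF5 exon bases, 22.1% are shared with NUP62 on the opposite strand, and the library kit kept no strand. NUP62 was at 131 CPM in shNTC+Dox and differed by -0.21 on the log2 scale (adjusted p = 0.174, edgeR's quasi-likelihood test), so part of the ATF5 count is uncertain.

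NUPR1 (ENSG00000176046, chr16:28532708-28539008), a small stress-inducible nuclear protein and a target of ATF4, rose more than any other of the 35, from a very low level. The shNTC+Dox libraries had 17, 19 and 10 counts and the shEHD1+Dox libraries 122, 66 and 85, which came to 0.646, 0.686 and 0.448 CPM against 4.28, 2.70 and 2.75 CPM. Even the lowest shEHD1+Dox library had several times the level of the highest control, and the rise was 5.40-fold (log2 fold change 2.43, SE 0.30; adjusted p = 0.00145, edgeR's quasi-likelihood test). With so few reads in the controls the size of the rise is less certain than its direction, and 16.5% of the NUPR1 exon bases are shared with another gene model on the same strand.

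DDIT3 encodes CHOP, a factor tied to cell death in prolonged ER stress. It was at 11.0, 10.6 and 7.34 CPM in shNTC+Dox and at 15.7, 10.5 and 11.6 CPM in shEHD1+Dox, so the groups overlapped and only shEHD1+Dox replicate 1 was far above the controls (log2 fold change 0.38, SE 0.20; adjusted p = 0.223, edgeR's quasi-likelihood test). DDIT3 shares 39.6% of its exon bases with MARS1 on the opposite strand, which was at 350 CPM in shNTC+Dox, so its count is uncertain. ATF3, an early stress-induced factor, was at 8.17, 8.99 and 4.61 CPM in shNTC+Dox and at 9.20, 8.99 and 10.7 CPM in shEHD1+Dox. The groups overlapped, shNTC+Dox replicate 3 was the lowest library, and without it the log2 fold change went from 0.40 (adjusted p = 0.266) to 0.16 (edgeR's quasi-likelihood test). XBP1, the factor made active by IRE1α splicing, was at 83.2, 90.5 and 90.6 CPM in shNTC+Dox and at 95.5, 109 and 104 CPM in shEHD1+Dox. These did not overlap, with a log2 fold change of 0.23 (SE 0.07; adjusted p = 0.0706, edgeR's quasi-likelihood test) and, without shNTC+Dox replicate 3, of 0.25 (adjusted p = 0.0416). Gene counts do not separate spliced from unspliced XBP1 mRNA. The log2 fold changes of CEBPG and CEBPB, partners of ATF4 in dimers, were 0.20 (SE 0.09; adjusted p = 0.151) and 0.02 (SE 0.13; adjusted p = 0.921, both edgeR's quasi-likelihood test).

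**Figure D2:**
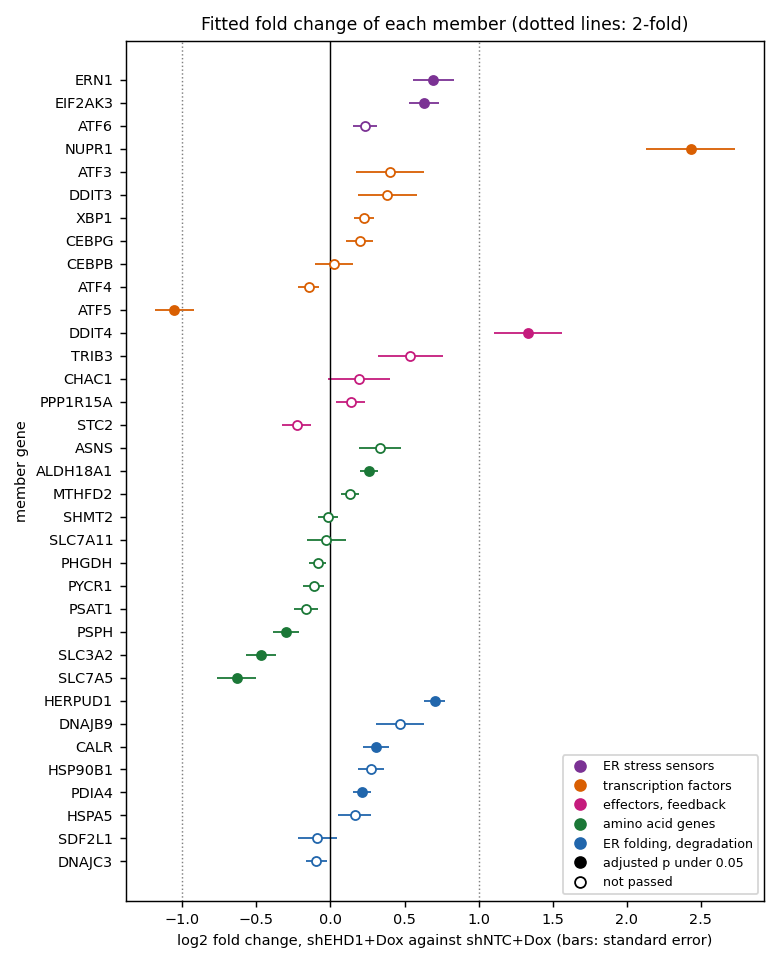
Log2 fold change of each of the 35 genes, shEHD1+Dox against shNTC+Dox, with its SE as a bar, ordered by role and filled where the adjusted p was under 0.05. NUPR1 at 2.43, DDIT4 at 1.34 and ATF5 at -1.05 lie outside the range from -0.63 to 0.70 that holds the other 32 genes.

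Of the 5 effector and feedback genes downstream of these factors, DDIT4 rose and 4 did not pass. DDIT4 (ENSG00000168209, chr10:72273919-72276036), also known as REDD1, is a stress-induced inhibitor of mTORC1 signalling. It was at 27.7, 27.2 and 14.8 CPM in shNTC+Dox and at 63.5, 50.6 and 62.4 CPM in shEHD1+Dox. All shEHD1+Dox libraries were far above the controls, of which replicate 3 was the lowest, and the rise was 2.52-fold (log2 fold change 1.34, SE 0.23; adjusted p = 0.0107, edgeR's quasi-likelihood test). Without shNTC+Dox replicate 3 the log2 fold change was 1.10, with a smaller adjusted p of 0.000146 (edgeR's quasi-likelihood test). TRIB3, a pseudokinase that feeds back on ATF4 and CHOP, was at 35.6, 34.6 and 19.2 CPM in shNTC+Dox and at 47.6, 39.5 and 43.1 CPM in shEHD1+Dox. Its groups did not overlap, the log2 fold change was 0.54 (SE 0.22; adjusted p = 0.142, edgeR's quasi-likelihood test), and without shNTC+Dox replicate 3 it was smaller but passed (0.31; adjusted p = 0.0318). The remaining effectors differed little. PPP1R15A, which encodes the phosphatase subunit GADD34 that reverses eIF2α phosphorylation, had a log2 fold change of 0.14 (SE 0.10). That of CHAC1, an enzyme that degrades glutathione, was 0.19 (SE 0.21), and -0.01 without shNTC+Dox replicate 3. STC2, a secreted glycoprotein, was lower in every shEHD1+Dox library at -0.23 (SE 0.10), and none of these passed, with adjusted p-values of 0.377, 0.567 and 0.135 (edgeR's quasi-likelihood test).

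Of the 11 amino acid genes, 3 fell (27.3%), 1 rose (9.09%) and 7 did not pass, and their median log2 fold change was -0.09. The share that rose was near the 8.59% of all genes tested. The 2 that fell most encode the chains of a single transporter. SLC7A5 (ENSG00000103257, chr16:87830023-87869507) encodes LAT1, the carrier of large neutral amino acids such as leucine. It was at 376, 364 and 500 CPM in shNTC+Dox and at 254, 298 and 248 CPM in shEHD1+Dox (log2 fold change -0.63, SE 0.13; adjusted p = 0.0132, edgeR's quasi-likelihood test). SLC3A2 (ENSG00000168003, chr11:62856004-62888880), the heavy chain that carries LAT1 and xCT to the cell surface, was at 169, 163 and 208 CPM against 126, 141 and 124 CPM (log2 fold change -0.47, SE 0.10; adjusted p = 0.0167, edgeR's quasi-likelihood test). For both genes every shEHD1+Dox library was below every control, and shNTC+Dox replicate 3 was the highest library. Both stayed past the threshold without that library, at -0.48 and -0.35, but leaving out shEHD1+Dox replicate 1 or 3 took both calls away at nearly the same size, with log2 fold changes of -0.60 and -0.58 for SLC7A5 and -0.44 and -0.43 for SLC3A2 (adjusted p up to 0.0599 and 0.0721, edgeR's quasi-likelihood test). SLC7A11, which encodes xCT, the cystine carrier that pairs with SLC3A2, was at 82.5, 81.3 and 88.5 CPM and at 80.3, 101 and 66.6 CPM. Its groups overlapped, with a log2 fold change of -0.03 (SE 0.13; adjusted p = 0.909, edgeR's quasi-likelihood test).

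Among the enzymes of amino acid synthesis, ALDH18A1 rose and PSPH fell. ALDH18A1 (ENSG00000059573, chr10:95605941-95656711), which makes the precursor of proline and ornithine, was at 146, 157 and 156 CPM in shNTC+Dox and at 183, 185 and 183 CPM in shEHD1+Dox (log2 fold change 0.26, SE 0.06; adjusted p = 0.0217, edgeR's quasi-likelihood test). PSPH (ENSG00000146733, chr7:56011051-56051604), the phosphatase of the last step of serine synthesis, was at 63.1, 74.3 and 74.3 CPM against 55.6, 55.8 and 60.6 CPM (log2 fold change -0.30, SE 0.09; adjusted p = 0.0432, edgeR's quasi-likelihood test). Neither gene's groups overlapped. Both calls were near the threshold, and when libraries were left out singly each held in 2 of 6 fits. Reads can also be shared between PSPH and PSPHP1, a copy whose counts came to 6.33% of those of PSPH. The upstream enzymes of serine synthesis, PHGDH and PSAT1, had log2 fold changes of -0.09 (SE 0.06) and -0.16 (SE 0.08), and those of SHMT2 and MTHFD2, which feed mitochondrial folate metabolism, were -0.02 (SE 0.07) and 0.13 (SE 0.06). PYCR1, which completes proline synthesis, was at -0.11 (SE 0.07), and none of these 5 passed, with adjusted p-values of 0.191 to 0.885 (edgeR's quasi-likelihood test). ASNS, the asparagine synthetase often used as a readout of ATF4, was at 121, 128 and 86.1 CPM in shNTC+Dox and at 148, 133 and 140 CPM in shEHD1+Dox. These did not overlap, but the log2 fold change of 0.33 (SE 0.14; adjusted p = 0.129, edgeR's quasi-likelihood test) was 0.18 without the low control replicate 3. Of ASNS exon bases, 49.3% are shared with a gene model on the same strand, which was at 9.01 CPM in shNTC+Dox. That gene model had a log2 fold change of 1.06 (adjusted p = 0.0879, edgeR's quasi-likelihood test), so part of the ASNS count is uncertain.

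Of the 8 genes of ER folding and degradation, HERPUD1, CALR and PDIA4 rose (37.5%) and none fell. HERPUD1 (ENSG00000051108, chr16:56932142-56944864), an ER membrane protein that organises ER-associated degradation, had the smallest adjusted p of the 35 genes. It was at 29.8, 30.9 and 30.9 CPM in shNTC+Dox and at 49.3, 49.8 and 50.1 CPM in shEHD1+Dox. The groups were far apart against their spread of 2.11% and 0.81% (coefficients of variation), and the rise was 1.63-fold (log2 fold change 0.70, SE 0.07; adjusted p = 0.000437, edgeR's quasi-likelihood test). With any single library left out, its log2 fold change stayed between 0.69 and 0.71. CALR (ENSG00000179218, chr19:12938578-12944489), the calcium-binding lectin chaperone calreticulin, was at 521, 515 and 620 CPM against 662, 681 and 707 CPM (log2 fold change 0.31, SE 0.09; adjusted p = 0.0397, edgeR's quasi-likelihood test). PDIA4 (ENSG00000155660, chr7:149003062-149028662), a protein disulfide isomerase, was at 208, 205 and 215 CPM against 241, 241 and 247 CPM (log2 fold change 0.21, SE 0.06; adjusted p = 0.0374, edgeR's quasi-likelihood test). Neither overlapped between groups, though with libraries left out singly the CALR call held in 1 and the PDIA4 call in 2 of 6 fits.

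The best known targets of the UPR were less clearly apart. HSPA5, which encodes BiP, the ER chaperone that also keeps the stress sensors inactive, was at 576, 585 and 701 CPM in shNTC+Dox and at 622, 793 and 669 CPM in shEHD1+Dox. Control replicate 3 lay above 2 of the shEHD1+Dox libraries, and the log2 fold change of 0.16 (SE 0.11) did not pass (adjusted p = 0.352, edgeR's quasi-likelihood test). HSP90B1, the ER chaperone GRP94, was at 1291, 1263 and 1457 CPM and at 1532, 1759 and 1558 CPM. These did not overlap (log2 fold change 0.27, SE 0.09; adjusted p = 0.0647, edgeR's quasi-likelihood test), and without shNTC+Dox replicate 3 the log2 fold change was 0.34 (adjusted p = 0.0128). DNAJB9, a BiP co-chaperone induced through IRE1α and XBP1, was at 9.01, 7.51 and 11.0 CPM and at 13.9, 12.6 and 11.6 CPM. Its groups came close without overlapping (log2 fold change 0.47, SE 0.16; adjusted p = 0.0733, edgeR's quasi-likelihood test), and without that control the log2 fold change was 0.62 (adjusted p = 0.0112). The co-chaperones DNAJC3, which also inhibits eIF2α kinases, and SDF2L1 had overlapping groups, with log2 fold changes of -0.10 (SE 0.07; adjusted p = 0.418) and -0.09 (SE 0.13; adjusted p = 0.676, both edgeR's quasi-likelihood test).

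**Figure D3:**
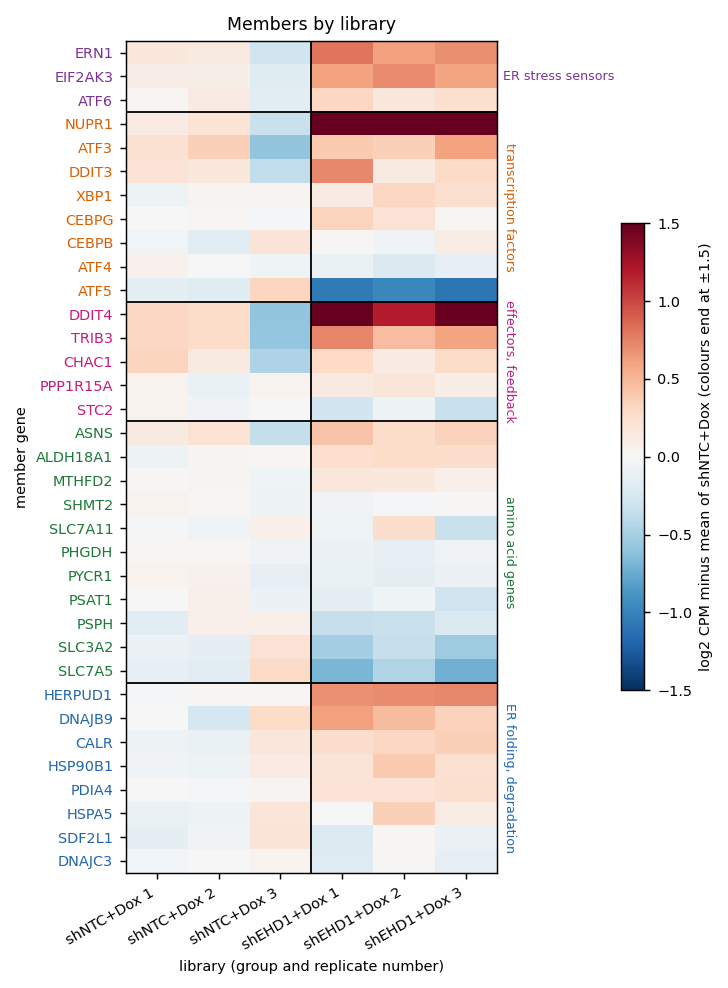
Log2 CPM of the 35 genes in each of the 6 libraries relative to the mean of the 3 shNTC+Dox libraries, 1 line of colours per gene, grouped by role, with colours ending at ±1.5. shNTC+Dox replicate 3 is lower than the other controls for DDIT4, ATF3 and TRIB3 and higher for 7 of the 8 ER folding and degradation genes.

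Levels averaged over the genes of a role group were also compared library by library. The mean level of the 3 sensors in shEHD1+Dox was 0.50 to 0.57 above the control mean on the log2 scale, where controls ranged from -0.21 to 0.11. The transcription factors were at 0.23 to 0.39 against -0.10 to 0.05, a mean that NUPR1 weighed on with 2.07 to 2.73 in shEHD1+Dox. The effectors were at 0.37 to 0.48 against -0.32 to 0.21, with DDIT4 at 1.17 or more in each shEHD1+Dox library. The ER folding and degradation genes were at 0.20 to 0.31 against -0.07 to 0.13. The amino acid genes were at -0.14 to -0.05 against -0.02 to 0.02, the only group of the 5 with every shEHD1+Dox library below its controls. That mean was weighed on by SLC7A5 at -0.72 to -0.46 and SLC3A2 at -0.53 to -0.35 in shEHD1+Dox. The group was not averaged without them. Of its 11 genes, 8 had a log2 fold change below 0 and 3 above 0.

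Sequence elements of the UPR were looked for in promoters, since the ER chaperone genes moved unequally. The 35 genes were listed as known genes of these pathways, so matches set beside the share of all promoters are no test of enrichment. Promoters of RefSeq on GRCh38.p14, from 250 bases before to 50 after each start site, were found for 30 of the 35 genes, with none for NUPR1, PSPH, SHMT2, PYCR1 and SLC7A11. The ER stress element (ERSE), searched on both strands as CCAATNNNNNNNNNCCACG, was in 0.0769% of all 35116 promoters, and in those of HSPA5, HSP90B1, CALR and XBP1. It is printed in capitals with its flanks, read 5′ to 3′ along the gene, and the capitals of CALR and of the second HSP90B1 window hold it in reverse complement.
HSPA5 (chr9:125241376-125241424, minus strand): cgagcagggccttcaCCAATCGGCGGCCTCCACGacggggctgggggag
XBP1 (chr22:28800588-28800636, minus strand): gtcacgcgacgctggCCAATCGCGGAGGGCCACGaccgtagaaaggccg
CALR (chr19:12938369-12938417, plus strand): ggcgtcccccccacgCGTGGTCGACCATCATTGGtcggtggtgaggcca
HSP90B1 (chr12:103930201-103930249, plus strand): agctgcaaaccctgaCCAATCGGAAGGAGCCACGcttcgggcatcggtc
HSP90B1 (chr12:103930306-103930354, plus strand): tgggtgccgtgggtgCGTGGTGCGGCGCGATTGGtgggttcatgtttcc
Of these 4 genes CALR rose, HSP90B1 and XBP1 were higher without overlap at adjusted p-values of 0.0647 and 0.0706, and HSPA5 overlapped between groups (edgeR's quasi-likelihood test).

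The shorter ERSE-II, searched on both strands as ATTGGNCCACG, was in 0.0541% of the 35116 promoters, and among these genes in HERPUD1 and SDF2L1. The element is in capitals, and that of SDF2L1 is in reverse complement.
HERPUD1 (chr16:56932010-56932050, plus strand): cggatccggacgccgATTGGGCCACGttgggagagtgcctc
SDF2L1 (chr22:21642099-21642139, plus strand): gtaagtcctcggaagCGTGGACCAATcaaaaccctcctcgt
HERPUD1 rose by 0.70 on the log2 scale, whereas SDF2L1 was at -0.09 (SE 0.13), so the letters of this element were shared by a gene that rose and one whose groups overlapped.

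A core of the C/EBP-ATF element, through which ATF4 dimers bind, was searched on both strands as TGATGNAA and was in 3.62% of the 35116 promoters. Among the 30 genes it was in ASNS, ATF3, CEBPG, CHAC1 and HERPUD1, and in SLC3A2 at 37 bases after the start site. The windows show the core in capitals, in reverse complement for CHAC1 and HERPUD1.
ASNS (chr7:97872454-97872491, minus strand): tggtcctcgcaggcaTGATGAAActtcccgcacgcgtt
ATF3 (chr1:212565201-212565238, plus strand): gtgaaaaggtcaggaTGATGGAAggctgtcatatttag
CEBPG (chr19:33374056-33374093, plus strand): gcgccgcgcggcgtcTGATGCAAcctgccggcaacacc
CHAC1 (chr15:40953247-40953284, plus strand): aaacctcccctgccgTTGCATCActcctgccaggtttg
HERPUD1 (chr16:56931951-56931988, plus strand): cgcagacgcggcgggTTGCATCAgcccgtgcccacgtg
HERPUD1 alone of the 30 held both ERSE-II and this core, which lay apart in its promoter. Of the 6 genes with the core, HERPUD1 rose, SLC3A2 fell and 4 did not pass. A match of letters is a description of the window and not of binding.

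Genes around these pathways were examined in 7 further lists of 117 genes, 115 of which were tested, while FGF21 and DERL3 had no count in any library. Of the 115, 15 rose and 7 fell (13.0% and 6.09%), and the median log2 fold change was 0.06. Over all genes tested, 8.59% rose and 8.75% fell, and the share of each list below is to be set beside these. Of 23 tested genes regarded as further targets of ATF4, 6 rose and 2 fell (26.1% and 8.7%), with a median of 0.21. SESN2, a stress-induced inhibitor of mTORC1 like DDIT4, was at 13.0, 16.0 and 10.5 CPM in shNTC+Dox and at 34.4, 31.3 and 31.0 CPM in shEHD1+Dox. The groups were far apart (log2 fold change 1.29, SE 0.15; adjusted p = 0.00096, edgeR's quasi-likelihood test). GDF15, a secreted stress cytokine, was nearly silent in shNTC+Dox, with 7, 0 and 5 counts, and had 101, 36 and 64 counts in shEHD1+Dox. GDF15 met the count filter only through the shEHD1+Dox libraries, where it was high. Its adjusted p of 0.00793 (edgeR's quasi-likelihood test) is therefore no support for the rise, though GDF15 is counted among the 6 and the 15. It did not reach the count filter once a shEHD1+Dox library was left out, or when 10 counts were asked of all libraries. KLHL24, an adaptor of ubiquitin ligases, rose from 22.5, 25.2 and 19.1 CPM to 42.0, 35.9 and 41.1 CPM (log2 fold change 0.83, SE 0.12; adjusted p = 0.00235, edgeR's quasi-likelihood test). SLC1A4, a carrier of small neutral amino acids, fell like SLC7A5 and SLC3A2, from 277, 275 and 333 CPM to 214, 233 and 219 CPM (log2 fold change -0.41, SE 0.09; adjusted p = 0.0145, edgeR's quasi-likelihood test), and passed in 4 of 6 fits with a library left out, where SESN2 and KLHL24 passed in 6.

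**Figure D4:**
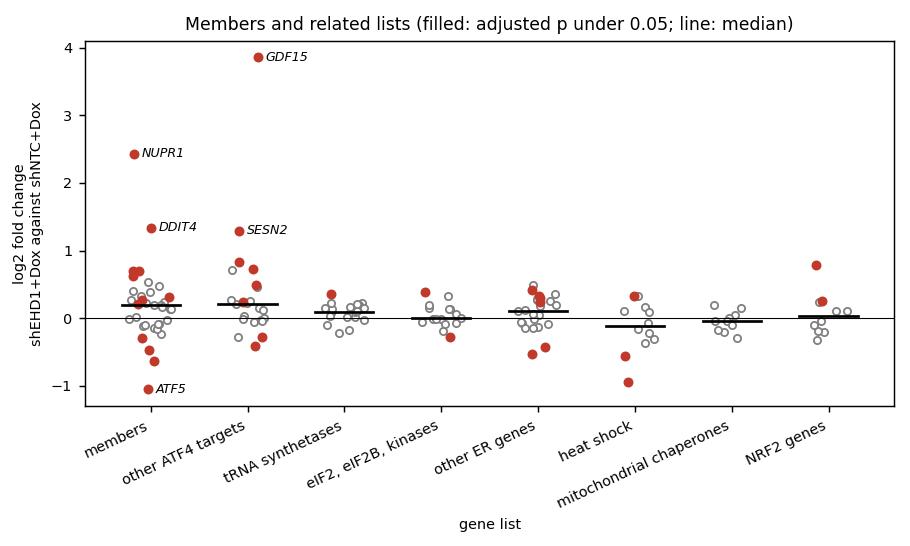
Log2 fold change of the 35 genes (members) and of every tested gene of the 7 related lists, 1 point per gene, filled where the adjusted p was under 0.05, with the median of each list as a line. The medians run from -0.11 for heat shock genes to 0.21 for other ATF4 targets, and most single genes lie near 0.

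Of 16 genes of eIF2 and its kinases and exchange factor, 1 rose and 1 fell (6.25% each). EIF2AK4 encodes GCN2, the eIF2α kinase that senses uncharged tRNA, and was at 178, 173 and 145 CPM in shNTC+Dox and at 225, 220 and 206 CPM in shEHD1+Dox (log2 fold change 0.39, SE 0.09; adjusted p = 0.0174, edgeR's quasi-likelihood test). It thus rose, as did EIF2AK3, a kinase of the same family. The other kinases of that family did not pass: EIF2AK1 was at 0.15 (SE 0.06; adjusted p = 0.108) and EIF2AK2 at 0.06 (SE 0.08; adjusted p = 0.635, both edgeR's quasi-likelihood test). EIF2B5, the catalytic subunit of the exchange factor that phosphorylated eIF2 inhibits, fell from 138, 134 and 153 CPM to 116, 118 and 118 CPM (log2 fold change -0.28, SE 0.07; adjusted p = 0.0288, edgeR's quasi-likelihood test). Of 20 aminoacyl-tRNA synthetases, which load tRNAs, SARS1 rose (log2 fold change 0.36, SE 0.09; adjusted p = 0.031, edgeR's quasi-likelihood test) and 19 did not pass, with a list median of 0.10. SARS1 made up 5.0% of that list. With a library left out, EIF2B5 passed in 2, SARS1 in 3 and EIF2AK4 in 4 of 6 fits.

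Of 24 further UPR genes, 4 rose and 2 fell (16.7% and 8.33%), with a median of 0.11. HSPA13, an ER-associated member of the HSP70 family, and DERL1, a component of ER-associated degradation, rose by log2 fold changes of 0.42 (SE 0.07; adjusted p = 0.00584) and 0.33 (SE 0.08; adjusted p = 0.0256, both edgeR's quasi-likelihood test). HYOU1, an ER chaperone of the HSP70 family that is usually induced together with HSPA5, fell from 173, 165 and 197 CPM to 123, 148 and 129 CPM (log2 fold change -0.42, SE 0.09; adjusted p = 0.0171, edgeR's quasi-likelihood test). CREB3L2, an ER-anchored transcription factor, fell by 0.53 on the log2 scale (SE 0.13; adjusted p = 0.0255, edgeR's quasi-likelihood test). DERL1 passed in 1, CREB3L2 in 2, HYOU1 in 4 and HSPA13 in 6 of 6 fits with a library left out.

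Other stress programmes were mixed. Of 12 heat shock genes of the cytosol, HSPB1, which encodes HSP27, rose (log2 fold change 0.33, SE 0.08; adjusted p = 0.0214), and 2 HSP40 co-chaperones fell, DNAJB1 (-0.55, SE 0.10; adjusted p = 0.00627) and DNAJA1 (-0.94, SE 0.22; adjusted p = 0.0319, all edgeR's quasi-likelihood test). Those higher and lower were 8.33% and 16.7% of the heat shock list. DNAJA1 was at 204, 194 and 316 CPM in shNTC+Dox and at 104, 149 and 119 CPM in shEHD1+Dox. Control replicate 3 was the highest library, and without it the log2 fold change was -0.68 (adjusted p = 0.0244, edgeR's quasi-likelihood test). DNAJA1 did not pass without shEHD1+Dox replicate 1 or 3 (-0.82 and -0.91, adjusted p = 0.0901 and 0.0962) or with no filter on low counts (-0.92, adjusted p = 0.0808, all edgeR's quasi-likelihood test). HSPB1 passed in 2 and DNAJB1 in 6 of 6 fits with a library left out. None of 10 mitochondrial stress genes passed (edgeR's quasi-likelihood test), 4 had an unadjusted p under 0.05, and DESeq2's Wald test called 1, YME1L1, a protease named after its values were seen. Of 10 targets and regulators of NRF2, the factor of the oxidative stress response, HMOX1, which breaks down heme, rose from 3.61, 3.90 and 4.39 CPM to 7.59, 6.54 and 6.43 CPM (log2 fold change 0.79, SE 0.16; adjusted p = 0.0122, edgeR's quasi-likelihood test). ME1, an enzyme that yields NADPH, rose by 0.25 on the log2 scale (SE 0.07; adjusted p = 0.0412, edgeR's quasi-likelihood test), and the other 8 did not pass. ME1 passed in 1 and HMOX1 in 5 of 6 fits with a library left out.

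**Figure D5:**
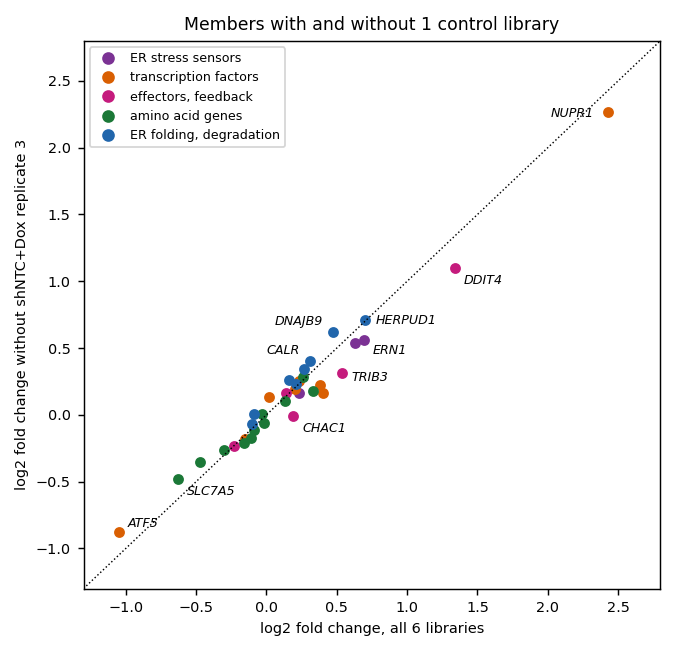
Log2 fold change of each of the 35 genes with all 6 libraries (x axis) and without shNTC+Dox replicate 3 (y axis), coloured by role, with a dotted line where both are equal. DDIT4 moved from 1.34 to 1.10 and TRIB3 from 0.54 to 0.31, DNAJB9 moved from 0.47 to 0.62, and HERPUD1 lies on the line.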

How the data were processed

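RNA libraries of 6 TC71 samples (3 per group) were made with a TruSeq kit that keeps no strand. Per the labels the build was hg38. The study's methods name hisat2 and StringTie, while the submitters' processing notes name STAR 2.7.3a and DESeq2. How the authors derived the deposited whole-number counts per gene, and how reads that fit several genes were treated, is not given in the sources used here. Groups came from the sample labels.

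The quasi-likelihood test of edgeR 4.0.16 (R 4.3.3; robust glmQLFit, then glmQLFTest) was run on TMM-scaled counts. It covered 16785 of 60676 genes, those that reached 10 counts in 3 or more libraries, and p-values were adjusted by Benjamini-Hochberg over all of them. 29676 genes had no count. Genes were called below an adjusted p of 0.05, with a 2-fold change added where stated. For single genes the exact two-sided permutation test of 3 against 3 libraries cannot go below 0.1. Levels per length used merged exons of GENCODE on GRCh38, in which 60357 gene identifiers (99.5%) were found. Of the 35 genes, 14 share exon bases with another gene.

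The 35 genes and the related lists were chosen with earlier results of these data known. By rule, values per library are given for EHD1, every member that passed and ATF4, DDIT3, ATF3, XBP1, HSPA5, EIF2AK3, ERN1 and ATF6, and up to 4 genes with the smallest adjusted p are named per related list. Those of TRIB3, ASNS, SLC7A11, HSP90B1, DNAJB9 and some related genes were added after their values were seen. Alternatives were scaling by DESeq2 size factors or library totals, dropping the filter or asking for 10 counts in all libraries, DESeq2 1.42.0 (Wald test), a block for replicate numbers, longest transcripts for lengths, and leaving out each library. Promoter sequences came from RefSeq (GRCh38.p14).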

Additional observations from a re-analysis of the deposited data

How the results depend on the processing

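Of the 8 members that rose and 4 that fell, ATF5, DDIT4, EIF2AK3, HERPUD1 and NUPR1 passed whichever of the 6 libraries was left out. Leaving out 1 library gave 4 to 12 members higher, 1 to 4 lower and 2 to 3 past 2-fold, 3 to 28 related genes higher and 1 to 8 lower, a median of 0.16 to 0.20 and 6 to 10 members lower without overlap. The 12 and the 28 came without shNTC+Dox replicate 3, and the fewest members higher without shEHD1+Dox replicate 1. In the fit without shNTC+Dox replicate 3, 11.4% of all genes tested were higher and 10.5% lower. No other share of all genes was computed for the alternative fits, so these counts describe the fits and are no result about the members. With a library left out, groups also separate more readily, so the 6 to 10 without overlap show no gain for the members. Without shEHD1+Dox replicate 1 or 3, ATF5 was the only member lower. Related genes higher were 23 with library totals and 24 with the Wald test of DESeq2, against 15. The DESeq2 test called 12 members higher and 4 lower, but the share of all genes that it called was not computed. With library totals the median was 0.23, and SHMT2 and SLC7A11 reversed to 0.02 and 0.01. The typical level of members per length in shNTC+Dox, near their median and not their mean, was 60.9 on merged exons and 50.2 with the longest transcript. Small differences also reversed in single fits, with ranges over the 6 fits that left out a library of -0.06 to 0.13 for CEBPB (also -0.00071 and -0.02), -0.01 to 0.37 for CHAC1, -0.06 to 0.01 for SHMT2 (also 0.0015), -0.19 to 0.11 for SLC7A11 and -0.16 to 0.01 for SDF2L1. The cause of these shifts was not tested.

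Same-numbered libraries did not deviate together (correlations of 0.072, -0.0593 and -0.0448), so the numbers were not taken as pairs. With the replicate number as a block, 5 members were higher (ALDH18A1, CALR and PDIA4 did not pass) and 3 lower (PSPH did not), and 8 related genes were higher (of those named, DERL1, ME1 and SARS1 did not pass) and 5 lower (EIF2B5 did not). The share of all genes called with the block was not computed. The log2 fold change of EHD1 was -1.77 with the block. Not every library correlated best with its own number.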
